A study of Mus musculus with 4 samples.

Results

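Inflammasome and interleukin-1 family genes were compared between CD8α+ and CD8α− dendritic cells of the C57BL/6 mouse spleen. The rule listed 10 genes and took every probe set of the Affymetrix whole-genome mouse array that the platform annotation assigns to 1 of them alone. It found 13 probe sets of 9 genes among 45101 probe sets. Nlrc4 was matched by no single-symbol probe set, by symbol, Entrez identifier or older name, and has no value here. The other 9 were the sensors Nlrp3 and Aim2, the adaptor Pycard, the caspases Casp1 and Casp4, the pore-forming protein Gsdmd, the cytokines Il1b and Il18, and the receptor antagonist Il1rn. There were 2 arrays per cell population, 4 in all, from cells that the labels describe by strain, organ and CD8α only, with no treatment, age, sorting gate or number of animals given. The labels do not tie the arrays of a group to separate animals, so p-values measure the spread between these arrays, which may be technical. In these bulk samples fewer cells of a type and less RNA per cell cannot be told apart.

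An inflammasome is a cytosolic complex in which a sensor recruits the adaptor ASC, the product of Pycard, and through it caspase-1. Caspase-1 cleaves the precursors of interleukin-1β and interleukin-18 into their active forms, and opens the pore-forming part of gasdermin D, through which the cytokines leave the cell. Mouse Casp4, also called caspase-11, is activated by cytosolic lipopolysaccharide and cleaves gasdermin D directly. The interleukin-1 receptor antagonist binds the same receptor as interleukin-1 without signalling. Splenic CD8α+ cells are conventional type 1 dendritic cells, known for cross-presentation, and most CD8α− cells are conventional type 2 cells.

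The arrays carried their labels. On the brightest Cd8a probe set the deposited signals were 2640 and 3102 on the CD8α+ arrays and 22 and 19 on the CD8α− arrays. Of type 1 markers on the array, 9 of 10 were brighter on both CD8α+ arrays, all but Batf3, against 25.6% of all tested genes. Of type 2 markers 6 of 7 were dimmer on both, against 28.3%. Among these 6, Itgam was above background on no array and Cx3cr1 on 1 only. Flt3, Itgax and Zbtb46 were above background on all 4 arrays. Background is the highest Bacillus control probe set of each array, 21.8 to 34.5 on the normalized scale. CD8α− replicate 2 stood apart. It had the lowest median deposited signal, 17.4 against 22.9 to 35.1, and a Gapdh 3′ to 5′ signal ratio of 10.7 against 1.53 to 2.02. Its Actb 3′ to 5′ ratio went the other way, 0.759 against 1.62 to 1.69. Results are therefore also given against each CD8α− array alone.

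Signals below are MAS5 values after quantile normalization, which gives the arrays 1 common distribution. Differences are log2 signal in CD8α+ minus CD8α− cells, ± the standard error of a limma fit over 22519 probe sets, with 2 arrays per group. Levels of different probe sets are not comparable, so only differences between arrays are read. No gene passed the test over the whole array. With limma, 0 of 10532 genes (0%) had an adjusted p under 0.05, and none of the 9 measured members did. At an unadjusted p under 0.05, 4 of the 9 members were dimmer in CD8α+ cells, against 8.82% of all tested genes. On the same rule 1 of the 9 was brighter, against 7.13% of all tested genes. Both CD8α+ arrays lay below both CD8α− arrays for 5 members, against 28.3% of all tested genes, and above them for 1 member, against 25.6%. The balance of calls moved with the scaling: 10.6% of genes were brighter and 2.38% dimmer on the deposited scale, 28.9% and 4.26% with median centring, and 5.93% and 16.7% with a common trimmed mean. The 4 dimmer members were Casp1, Casp4, Il1b and Il1rn, and the brighter one was Aim2. Leaving out CD8α+ replicate 1 kept Casp1 and Il1rn among them, and leaving out CD8α+ replicate 2 kept Casp4 and Il1rn. Without CD8α− replicate 1, 4 members (Aim2, Casp1, Casp4 and Il1rn) and 1320 genes in all had a limma adjusted p under 0.05, with the spread then taken from the CD8α+ arrays only. The median difference was -0.38 over the 9 members and -0.02 over all tested genes. All 9 members passed the filter on dim probe sets with at least 1 probe set, and 11 of their 13 probe sets did.

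**Figure D1:**
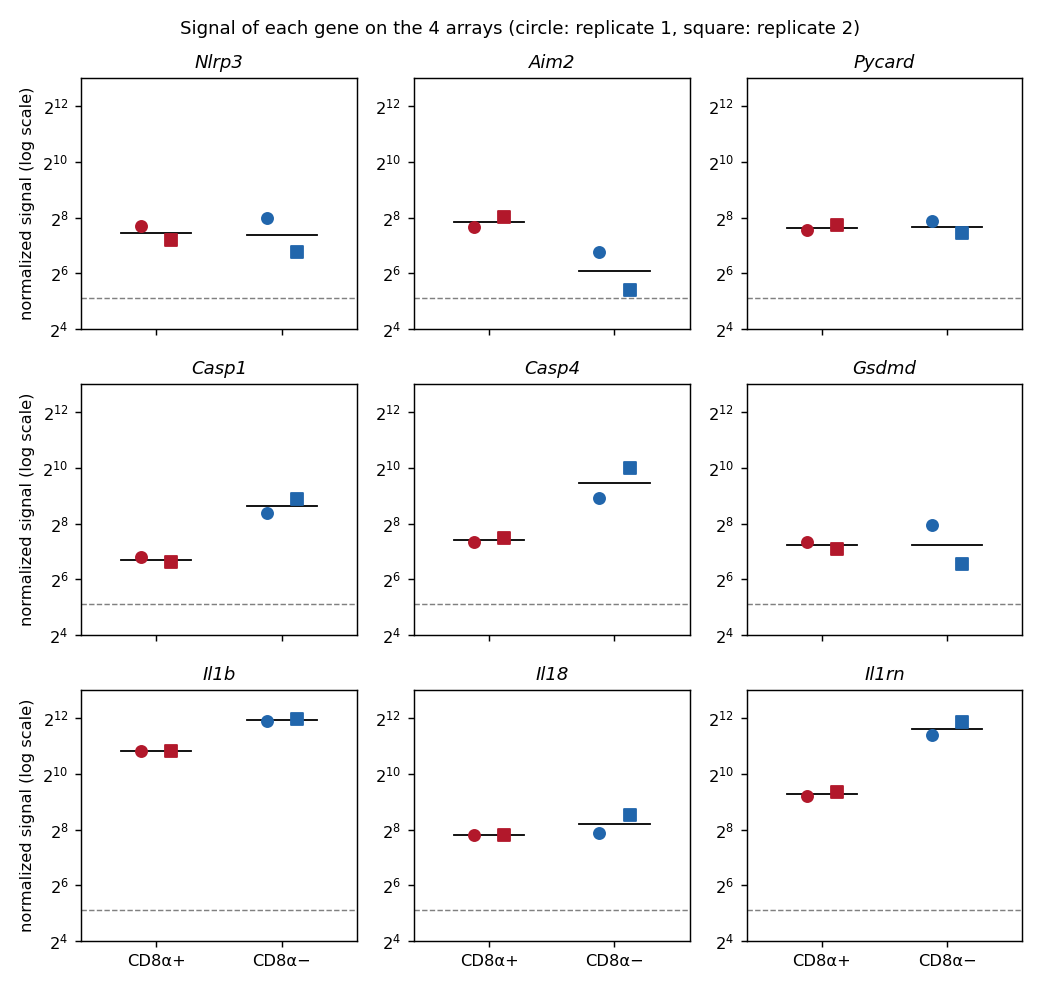
Normalized signal (log axis) of the 9 measured genes on the 4 arrays, each on its brightest tested probe set, with circles for replicate 1, squares for replicate 2, black bars for the group mean of log2 signals, and a dashed line at 34.5, the highest background of the arrays. Aim2 is higher on both CD8α+ arrays, Casp1, Casp4, Il1b, Il18 and Il1rn are lower on both, and the groups overlap for Nlrp3, Pycard and Gsdmd.

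Aim2, the sensor of cytosolic double-stranded DNA, was the member brighter in CD8α+ cells. Its signal was 203 and 263 on the CD8α+ arrays and 110 and 42.1 on the CD8α− arrays. The 42.1 of CD8α− replicate 2 was close to the background of that array, 34.5. Both CD8α+ arrays lay above both CD8α− arrays, and the CD8α− arrays differed from each other by 2.61-fold. The difference was 1.77 ± 0.57, a 3.40-fold higher signal, with a 95% interval of 0.26 to 3.27. The limma adjusted p was 0.277 and the unadjusted p 0.0303. Against CD8α− replicate 1 alone the difference was 1.08, and against replicate 2 alone it was 2.46. Leaving out CD8α+ replicate 1 or CD8α+ replicate 2 took the unadjusted p to 0.0776 and 0.132.

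The promoter of Aim2 is shown because it is the member with the opposite direction. It covers the 250 bases before the annotated start, from RefSeq on GRCm38.p6, at chr1:173420354-173420603 on the plus strand, written 5′ to 3′, with capitals for a match to the letters GAGGAAGT, a PU.1 motif.
Aim2: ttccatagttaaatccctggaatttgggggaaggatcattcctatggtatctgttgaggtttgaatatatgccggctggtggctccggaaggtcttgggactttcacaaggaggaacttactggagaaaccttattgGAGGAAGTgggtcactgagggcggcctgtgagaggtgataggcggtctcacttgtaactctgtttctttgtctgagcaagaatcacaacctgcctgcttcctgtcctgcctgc
PU.1 is a transcription factor of myeloid and dendritic cells. These letters lay 113 to 106 bases before the start, and on either strand they were in 2.44% of 32851 such windows of the mouse genome. The only other window of a member that held them was that of Pycard. The windows were searched on both strands for the interferon-stimulated response element GAAANNGAAA (in 2.98% of windows), the composite ETS-IRF element GGAANNGAAA (2.30%), the NF-κB motif GGGNNTTTCC (1.41%) and the AP-1 motif TGANTCA (6.75%). They were also searched on the gene's strand for the TATA box TATAAA (7.59%). Matches to the first pair can overlap, as the closing GAAA of either can open a response element. No window of a member held the response element or the composite element. A match is a description of letters and not evidence of binding. The promoter table held 9 of the 10 listed genes, with Gsdmd the one without a match.

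Nlrp3, the sensor of potassium efflux, crystals and toxins, showed no difference beyond the spread of its arrays. Its signal was 208 and 146 on the CD8α+ arrays and 252 and 108 on the CD8α− arrays, so the CD8α+ values lay between those of the CD8α− pair. The difference was 0.08 ± 0.54 (limma adjusted p = 0.952). The 95% interval, -1.35 to 1.5, leaves room for a change of over 2-fold either way. It was -0.53 against CD8α− replicate 1 and 0.69 against CD8α− replicate 2.

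The adaptor Pycard gave the narrowest interval among the members whose interval spanned 0. On its brightest probe set the signal was 189 and 212 on the CD8α+ arrays and 237 and 173 on the CD8α− arrays. The CD8α− values bracketed the CD8α+ values. The difference was -0.02 ± 0.34 (limma adjusted p = 0.987), with a 95% interval of -0.93 to 0.90. It was 0.91 on the deposited scale, 0.10 with a common trimmed mean and 0.91 with median centring. Relative to the median gene, which those scalings move by 0.67, -0.18 and 0.69, Pycard stood at 0.24, 0.28 and 0.23. Pycard had 2 more probe sets that were too dim to test. One was above background on 1 array of each group, and the other on none.

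The inflammatory caspases were both dimmer in CD8α+ cells. Casp1 read 112 and 98.0 on the CD8α+ arrays and 335 and 478 on the CD8α− arrays. The groups did not overlap, and the arrays within a group differed by 1.14-fold and 1.43-fold. The difference was -1.94 ± 0.35, a 3.83-fold lower signal (limma adjusted p = 0.152, unadjusted p = 0.00387). Casp4 read 163 and 180 on the CD8α+ arrays and 483 and 1016 on the CD8α− arrays. These groups were separate too, with a 2.10-fold gap inside the CD8α− pair. The difference was -2.03 ± 0.47, or 4.08-fold (limma adjusted p = 0.199, unadjusted p = 0.00978). Against CD8α− replicate 1 alone it was -1.49, and against replicate 2 alone -2.57, while Casp1 gave -1.68 and -2.19. Without CD8α+ replicate 1 the unadjusted p of Casp4 was 0.0604, and without CD8α+ replicate 2 that of Casp1 was 0.0507.

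Casp1 and Casp4 are next to each other in the RefSeq gene order of GRCm38.p6, and Casp12 follows Casp4. Casp12, a related caspase without an agreed function in inflammation, read 9.80 and 11.8 on the CD8α+ arrays and 43.1 and 29.0 on the CD8α− arrays. It was above background on 1 array only, CD8α− replicate 1, so its fitted difference of -1.72 ± 0.37 rests mainly on dim signals. The nearest tested genes outside this run of caspases were Msantd4 on one side, at 1.59 ± 0.57, and Dync2h1 on the other, at 0.00 ± 0.46. These were dim too. Msantd4 read 13.3 on CD8α− replicate 2, under the background of that array, 34.5. Dync2h1 was above background on 1 array of each group. The promoters of Casp1 and Casp4 are shown because these neighbours shared a direction. They cover the 250 bases before the first annotated start, at chr9:5298267-5298516 and chr9:5308599-5308848, both on the plus strand of GRCm38.p6, with capitals for the NF-κB letters.
Casp1: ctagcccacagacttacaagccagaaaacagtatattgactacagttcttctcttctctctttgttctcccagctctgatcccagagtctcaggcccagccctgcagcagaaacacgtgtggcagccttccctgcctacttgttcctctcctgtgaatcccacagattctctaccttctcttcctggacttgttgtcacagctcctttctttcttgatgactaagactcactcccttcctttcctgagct
Casp4: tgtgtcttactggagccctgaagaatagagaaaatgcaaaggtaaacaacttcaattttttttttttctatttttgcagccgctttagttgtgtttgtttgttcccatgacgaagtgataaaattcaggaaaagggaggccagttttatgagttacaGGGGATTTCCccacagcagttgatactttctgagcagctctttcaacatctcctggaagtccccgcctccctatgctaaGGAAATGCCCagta
The Casp4 window held the NF-κB letters at 2 places, 93 to 84 and 14 to 5 bases before the start, the second on the opposite strand. NF-κB is the factor that toll-like receptor signals activate. The Casp1 window held none of the 6 motifs searched.

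Gsdmd, which forms the pore, was read by 1 probe set. Its signal was 161 and 137 on the CD8α+ arrays and 247 and 93.3 on the CD8α− arrays. As with Nlrp3, the CD8α+ pair lay between the CD8α− arrays, which differed by 2.65-fold. The difference was -0.03 ± 0.56 (limma adjusted p = 0.986), with a 95% interval of -1.53 to 1.47. It was -0.73 against CD8α− replicate 1 and 0.67 against CD8α− replicate 2. It was 0.81 on the deposited scale and with median centring, which is 0.14 and 0.12 relative to the median gene.

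**Figure D2:**
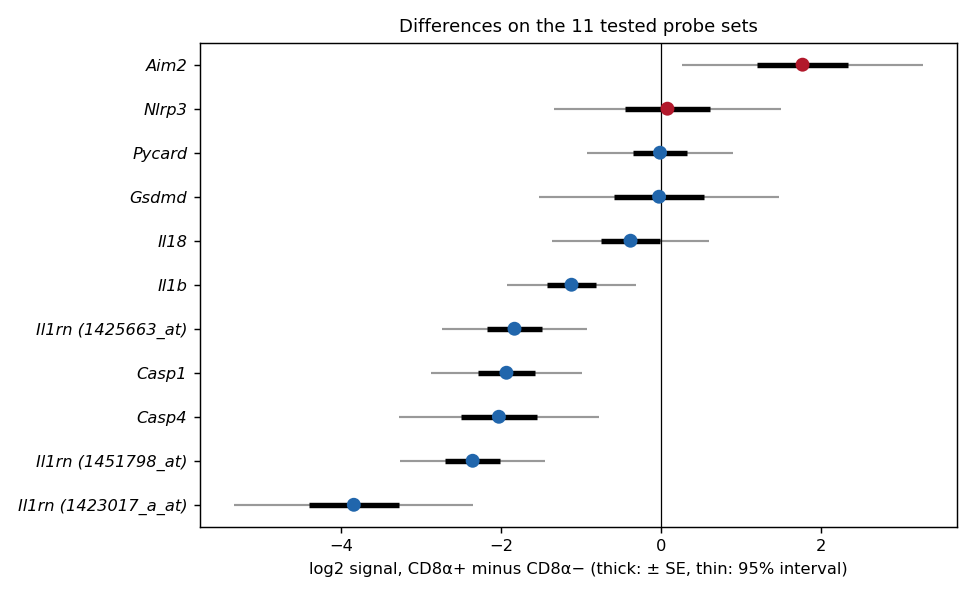
Differences in log2 signal, CD8α+ minus CD8α− arrays, on the 11 tested probe sets of the members, with thick bars for ± SE and thin bars for the 95% interval of the limma fit. Intervals of Aim2, Il1b, Casp1, Casp4 and the 3 Il1rn probe sets lie on one side of 0, and those of Nlrp3, Pycard, Gsdmd and Il18 span it.

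Il1b, the gene of the main secreted inflammasome cytokine, gave the closest replicates of the members that differed. Its signal was 1789 and 1829 on the CD8α+ arrays and 3837 and 4042 on the CD8α− arrays. The groups were well separated, with arrays of a group within 1.05-fold of each other. The difference was -1.12 ± 0.30, a 2.18-fold lower signal in CD8α+ cells (limma adjusted p = 0.238, unadjusted p = 0.0172). It was -1.08 against CD8α− replicate 1 and -1.16 against CD8α− replicate 2. The value depended on the scaling more than on the array left out. On the deposited scale it was -0.41, and since the median gene stood at 0.67 there, -1.08 relative to it. Leaving out CD8α+ replicate 1 or 2 raised the unadjusted p to 0.168 and 0.159, and a replicate block to 0.0522.

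Il18, which encodes the other caspase-1 substrate among the cytokines and is known for inducing interferon-γ, differed little. Its signal was 225 and 223 on the CD8α+ arrays and 234 and 364 on the CD8α− arrays. Both CD8α+ arrays were lower, but CD8α− replicate 1 was within a few percent of them. The difference was -0.38 ± 0.37 (limma adjusted p = 0.629), and it was -0.06 against CD8α− replicate 1 alone and -0.70 against CD8α− replicate 2 alone. On the deposited scale and with median centring it was 0.59, but relative to the median gene it stayed below 0, at -0.08 and -0.10.

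Il1rn gave the largest difference of the members and the smallest p. On its brightest probe set the signal was 583 and 646 on the CD8α+ arrays and 2691 and 3683 on the CD8α− arrays. The groups were far apart relative to the gaps within them, 1.11-fold and 1.37-fold. The difference was -2.36 ± 0.34, a 5.13-fold lower signal in CD8α+ cells (limma adjusted p = 0.126, unadjusted p = 0.00151), larger in size than that of 97.4% of tested probe sets. The second probe set read 98.1 and 86.5 on the CD8α+ arrays and 383 and 282 on the CD8α− arrays, and differed by -1.84 ± 0.34. The third read 14.7 and 2.54 on the CD8α+ arrays, where it was not above background, and 106 and 200 on the CD8α− arrays. Its fold was at least 5.61, computed against the background of each CD8α+ array. All 3 probe sets ran in the same direction, but the third passed the filter on dim probe sets through its CD8α− arrays only. Its direction therefore adds no separate support. The unadjusted p of the brightest one was under 0.05 in every alternative tried.

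The promoters of Il1b and Il1rn are shown because the agonist and its antagonist shared a direction. Both genes are on chromosome 2. The windows cover the 250 bases before the annotated start, at chr2:129371140-129371389 on the minus strand and, for the most upstream of the annotated starts of Il1rn, chr2:24336610-24336859 on the plus strand of GRCm38.p6. Capitals mark the TATA box letters in Il1b and the AP-1 letters in Il1rn.
Il1b: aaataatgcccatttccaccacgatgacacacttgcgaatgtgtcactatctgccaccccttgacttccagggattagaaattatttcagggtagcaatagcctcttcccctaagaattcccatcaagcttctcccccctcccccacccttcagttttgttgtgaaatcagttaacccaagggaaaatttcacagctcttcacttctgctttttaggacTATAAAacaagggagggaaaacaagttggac
Il1rn: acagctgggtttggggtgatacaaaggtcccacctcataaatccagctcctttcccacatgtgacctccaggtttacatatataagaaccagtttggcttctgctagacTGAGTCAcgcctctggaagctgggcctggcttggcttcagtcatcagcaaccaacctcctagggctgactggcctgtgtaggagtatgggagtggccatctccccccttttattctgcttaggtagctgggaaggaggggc
The TATA box letters of Il1b lay 31 to 26 bases before the start, and no other window of a member held them. The AP-1 letters of Il1rn lay 141 to 135 bases before the start, and match on both strands because the pattern TGANTCA is its own reverse complement. AP-1 sites are bound by Fos, Jun and Batf proteins. The first annotated windows of these genes thus shared no motif of the 6. A further window of Il1rn, at chr2:24345121-24345370, held the NF-κB letters 51 to 42 bases before its start.

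Ratios of members on the same array do not depend on a factor applied to all signals of that array. Quantile normalization is not such a factor, so ratios of the normalized signals differ from those given here. Each ratio of deposited signals is given relative to its mean on the CD8α+ arrays, since a ratio of different probe sets has no meaning as a level. The pairs were chosen after the values were seen. The ratio of Il1rn to Il1b was 1.94 and 2.40 times the CD8α+ mean on the CD8α− arrays, and 0.952 and 1.05 times it on the CD8α+ arrays. It was 2.16-fold lower in CD8α+ cells, so the antagonist differed by more than the cytokine on these arrays. The ratio of Il18 to Il1b was 1.99-fold higher in CD8α+ cells, at 0.487 and 0.517 times the CD8α+ mean on the CD8α− arrays. The ratio of Casp4 to Casp1 overlapped between the groups and differed by 1.03-fold. Relative to Pycard, Aim2 was 2.96-fold higher in CD8α+ cells, while Casp1 was 3.93-fold, Casp4 4.03-fold, Il1b 2.50-fold and Il1rn 5.38-fold lower, each without overlap. Relative to Pycard, Nlrp3, Gsdmd and Il18 overlapped between the groups. Aim2 against Casp1 moved most of the pairs computed, 11.7-fold. The ratios were not tested.

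**Figure D3:**
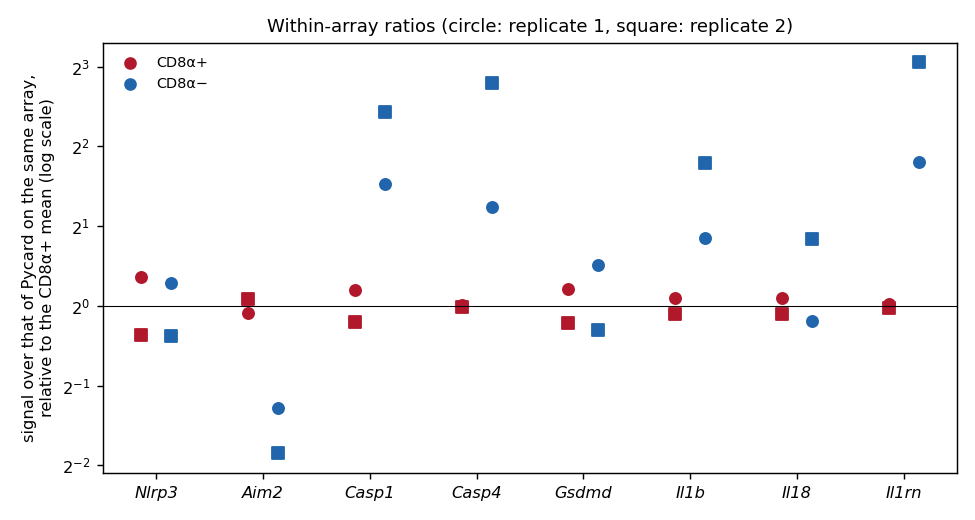
Ratio of each gene's deposited signal to that of Pycard on the same array, relative to the mean of the CD8α+ arrays (log axis), with circles for replicate 1 and squares for replicate 2. Aim2 lies at 0.410 and 0.278 on the CD8α− arrays, Il1rn at 3.49 and 8.32, and Nlrp3, Gsdmd and Il18 overlap between the groups.

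The CD8α− arrays differed in how far they stood from the CD8α+ mean, most of all for Casp4, Aim2, Nlrp3 and Gsdmd, each by over 1 on the log2 scale. Aim2, Casp1, Casp4, Il1b, Il18 and Il1rn had 1 direction against either CD8α− array, which follows from groups that do not overlap. Nlrp3, Pycard and Gsdmd were lower in CD8α+ cells against CD8α− replicate 1 and higher against CD8α− replicate 2.

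**Figure D4:**
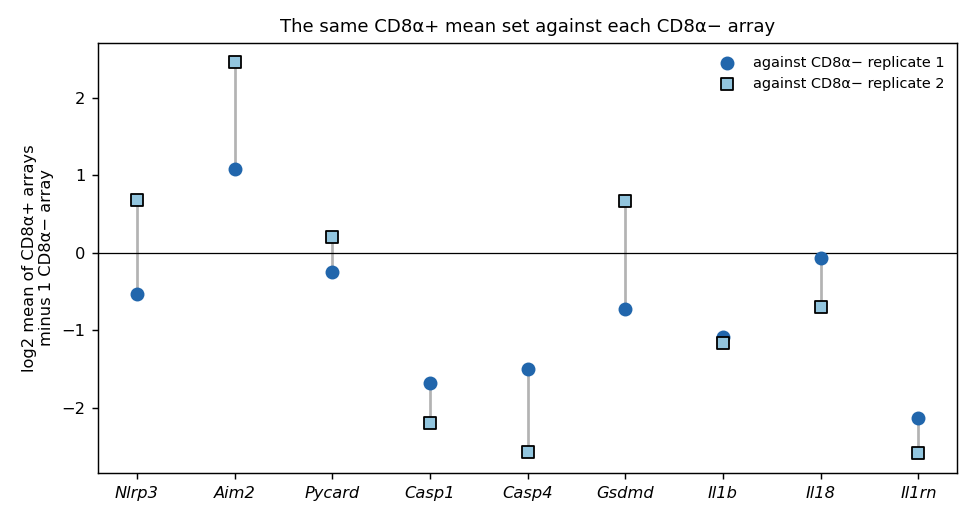
Mean log2 signal of the 2 CD8α+ arrays minus that of 1 CD8α− array, for replicate 1 (circles) and replicate 2 (squares). Points of Aim2, Casp1, Casp4, Il1b, Il18 and Il1rn fall on one side of 0, and those of Nlrp3, Pycard and Gsdmd on both sides.

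Other genes of the same pathways were followed in 4 lists of 63 genes. Of these, 53 were on the array by name and 41 passed the filter. At an unadjusted p under 0.05, 11 were dimmer in CD8α+ cells, 0 brighter and 30 not past it, against 8.82% dimmer and 7.13% brighter over all tested genes, and 0 had a limma adjusted p under 0.05. The median difference of the 41 was -0.48. The filter bears on these counts: Nlrp12 and Casp12 passed it through their CD8α− arrays only, and Il18bp, the interleukin-18 binding protein, fell just below it. Il18bp read 37.2 and 38.2 on the CD8α+ arrays and 11.9 and 2.61, within background, on the CD8α− arrays, at least 1.21-fold more in CD8α+ cells, and was not tested. It was picked with its value known. With either CD8α+ array left out, which leaves 1 array in that group, dimmer pathway genes no longer exceeded the share over all genes. Leaving out CD8α− replicate 1 gave 15 dimmer and 8 brighter, against 21.4% and 22.7% of all genes, and leaving out CD8α− replicate 2 gave 18 and 1, against 12.3% and 15.9%. On the deposited scale 1 was dimmer and 1 brighter, against 2.38% and 10.6% of all genes. With median centring 2 were dimmer and 8 brighter, against 4.26% and 28.9%. These scalings moved the median gene by 0.67 and 0.69.

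Of 9 further sensors and adaptors tested, 3 were dimmer at that level, against 8.82% of all tested genes. Brighter ones numbered 0, against 7.13%, and 6 were not past the level, with a median of -0.59 over the 9. Nlrp12, an NLR protein known for restraining inflammatory signals, read 2.30 and 11 on the CD8α+ arrays, within background, and 39.4 and 45.6 on the CD8α− arrays, at least 1.63-fold more. Nod1, a sensor of bacterial peptidoglycan, differed by -1.59 ± 0.52, and the nuclear DNA sensor Ifi204 by -1.19 ± 0.39. Naip6 (-0.18 ± 0.33) and the pyrin gene Mefv (-0.48 ± 0.68) had the largest p. Naip2 and Naip5, which pair with Nlrc4 to detect bacterial secretion needles and flagellin, stood at -0.59 ± 0.32 and -0.59 ± 0.32, both picked with their values known. Aim2 and Ifi204 belong to the same PYHIN family and differed in opposite directions. Ifi213, also of this family and the nearest tested gene on one side of Aim2, stood at -1.20 ± 0.35, and the next one, Ifi209, at -0.45 ± 0.68.

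Of 13 regulators and cell death effectors tested, with a median of -0.08, 0 were brighter, against 7.13% of all tested genes, and 9 not past the level. The other 4 were dimmer, against 8.82%. Besides Casp12 they were Txnip, a redox protein that binds Nlrp3 (-1.23 ± 0.34), the guanylate-binding protein Gbp2 (-1.22 ± 0.36), and the initiator caspase Casp8 (-1.04 ± 0.35), which is named after its value was seen. Serpinb1a (-0.08 ± 0.32), a protease inhibitor, and Tnfaip3 (0.19 ± 0.37), which encodes the NF-κB inhibitor A20, had the largest p. P2rx7, the ATP-gated channel that triggers Nlrp3, was 234 and 189 on the CD8α+ arrays and 139 and 47.5 on the CD8α− arrays. Its groups did not overlap, and its difference of 1.37 ± 0.61 had an unadjusted p of 0.0810. It is named after its value was seen.

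Of 6 interleukin-1 family ligands and receptors tested, with a median of -0.62, 0 were brighter, against 7.13% of all tested genes, and 4 not past the level. The other 2 were dimmer, against 8.82%. Il1r2, the decoy receptor that binds interleukin-1 without signalling, read 1493 and 1508 on the CD8α+ arrays and 3630 and 4757 on the CD8α− arrays. Those groups were clearly apart, by -1.47 ± 0.33 (limma adjusted p = 0.192). Il18rap, a chain of the interleukin-18 receptor, differed by -1.49 ± 0.48, while its partner chain Il18r1 stood at -0.23 ± 0.35. Il1f9, the older symbol of Il36g, stood at -0.83 ± 0.79. Il1a, the gene of interleukin-1α, was too dim to test and above background on 1 array only, CD8α+ replicate 1. In all, 12 genes of the 4 lists were on the array but below the filter.

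Of 13 genes of interleukin-1 receptor signalling tested, with a median of -0.36, 0 were brighter, against 7.13% of all tested genes, and 11 not past the level. The other 2 were dimmer, against 8.82%. They were Peli1, a ubiquitin ligase of the pathway (-1.16 ± 0.34), and Ikbkb, a kinase that activates NF-κB (-1.10 ± 0.33). The receptor kinase Irak1 (-0.07 ± 0.45) and the adaptor Tollip (-0.16 ± 0.30) had the largest p.

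**Figure D5:**
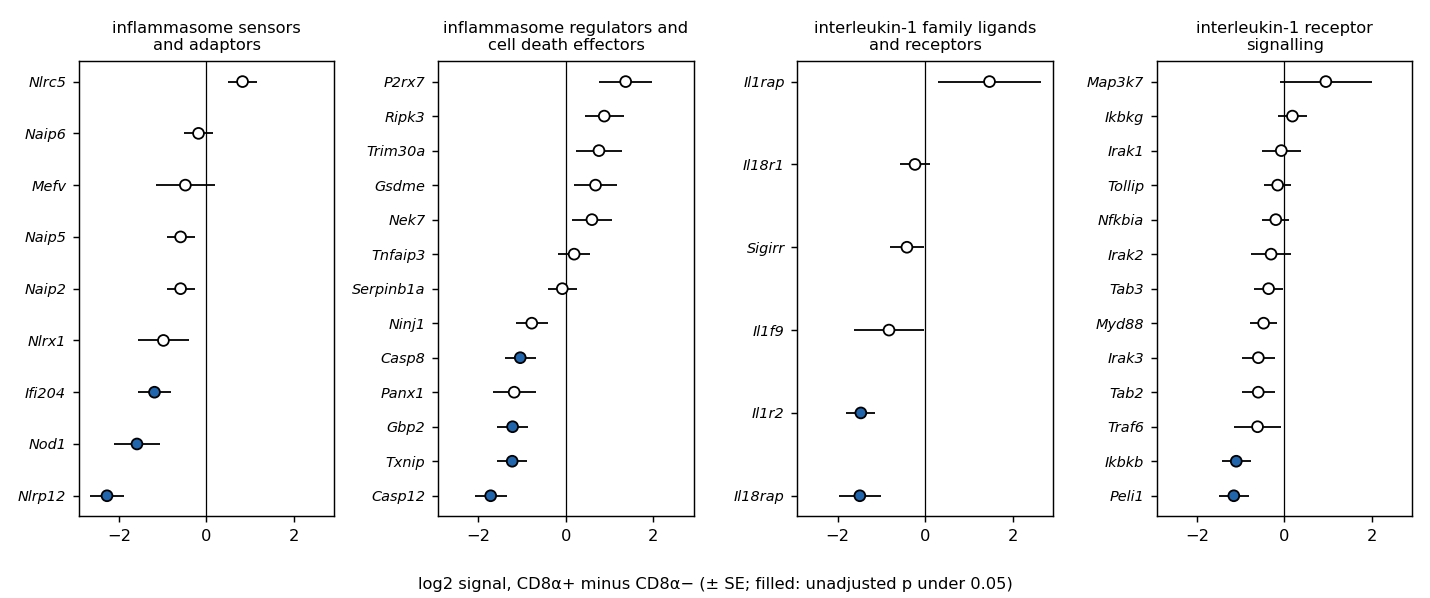
Differences in log2 signal, CD8α+ minus CD8α− arrays, ± SE of the limma fit, for the 41 tested genes of the 4 pathway lists, with filled points for an unadjusted p under 0.05. The 11 filled points all lie below 0, and the open points lie on both sides.

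Some markers of other cell types were lower in CD8α+ cells, as were Il1b, Il1rn and Il1r2, which neutrophils and monocytes also express. Over all tested genes, 28.3% were lower on both CD8α+ arrays and 25.6% higher. Of 9 neutrophil markers on the array, 6 were lower on both CD8α+ arrays and 0 higher. Their summed normalized signal was 6819 and 7433 on the CD8α+ arrays and 14045 and 11049 on the CD8α− arrays. S100a8 and S100a9 made up most of it. Csf3r and Cxcr2 overlapped between the groups, and so did Elane, which was above background on no array. Of 4 monocyte markers, 3 were lower on both CD8α+ arrays, with sums of 322 and 369 against 1609 and 2173, most of it Csf1r. Of 8 macrophage markers, 4 were lower and 1 higher, with sums of 608 and 728 against 940 and 1374, and C1qc was above background on no array. Of 6 natural killer cell markers, 5 were lower, with sums of 699 and 865 against 3700 and 2003. The other lists were mixed, with 2 lower and 1 higher of 5 plasmacytoid dendritic cell markers, 2 lower and 1 higher of 4 B cell markers, and 1 lower and 2 higher of 4 T cell markers. Both erythroid markers on the array were above background on no array. The part of these cells in the differences of the members was not tested.

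The genes with the most similar profiles were sought for the member with the smallest p in each direction. Likeness was the root mean square distance between log2 profiles, each centred on its mean over the 4 arrays, among 5507 genes with an SD of at least 0.5. Capn15 (0.0542), Rbm47 (0.0896) and Ccne1 (0.0926) were nearest to Aim2. Ccne1 was above background on neither CD8α− array and passed the filter through its CD8α+ arrays only. Capn15 was above background on 1 CD8α− array. Rin2 (0.0781), Cd300c2 (0.0828) and Adgrg6 (0.0854) were nearest to Il1rn. With 4 arrays such distances describe these arrays only.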

How the data were processed

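Gene expression was measured on 4 one-colour Affymetrix arrays, 2 of CD8α+ and 2 of CD8α− dendritic cells, grouped by the titles. The authors deposited intensity values, 1 linear MAS5 signal per probe set; the submitters' processing notes name MAS5, without its scaling target. Of 45101 probe sets, 64 were controls; of the other 45037, 34945 had 1 gene symbol, 932 several and 9160 none. Signals were quantile normalized, since the arrays shared no scale, raised to a floor of 6.99 (mean 25th percentile), and log2 transformed. Probe sets with a mean signal of at least 22.97 (the median) were tested with limma 3.58.1 in R 4.3.3 (lmFit, eBayes, two-sided, Benjamini-Hochberg over 22519 probe sets; 2 residual and 2.48 prior degrees of freedom). A gene stood for its brightest tested probe set, _x_at names last. The fit was tested on simulated data. Named genes were the members, Cd8a and, per list, up to 3 genes per direction with the smallest p under 0.05 and 2 with the largest. The members and lists were chosen with earlier results of these data known. The 4 arrays limit the precision. Pairs for ratios, gene neighbours, motifs and printed promoters were picked after values were seen. Quantile normalization was first run on linear signals and then, with member values seen, on log2 signals to follow the earlier processing; the first form is kept as an added alternative. Scalings, floors, filters, an intensity trend, a replicate block, a mean over the tested probe sets of a gene and left-out arrays were tried. Figures were drawn with matplotlib 3.10.9.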

Additional observations from a re-analysis of the deposited data

How the results depend on the processing

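The differences of Aim2, Casp1, Casp4, Il1b and Il1rn kept their direction under all 14 alternatives. They ranged from 1.08 to 2.48 for Aim2, -2.19 to -1.06 for Casp1, -2.57 to -1.10 for Casp4, -1.22 to -0.41 for Il1b and -2.68 to -1.51 for Il1rn. Only the scalings could have turned a direction. Filters, floor, trend and block leave these differences unchanged, and groups without overlap keep their order when an array is left out. The -2.68 of Il1rn is the mean over its 3 tested probe sets. It takes in the probe set that passed the filter through its CD8α− arrays only. The median gene stood at 0.67 on the deposited scale, 0.69 with median centring, -0.18 with a common trimmed mean and -0.11 without CD8α− replicate 1. Relative to it, Il1b ranged from -1.15 to -1.04.

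Of members dimmer at an unadjusted p under 0.05, the deposited scale left 1 (Il1rn) and median centring 2 (Casp1 and Il1rn), and leaving out an array gave 2 to 5. The brighter member, Aim2, was not counted with no filter (0 members), and leaving out an array gave 0 to 1. With arrays left out, 0 to 4 members had a limma adjusted p under 0.05; the 4 (Aim2, Casp1, Casp4, Il1rn) came without CD8α− replicate 1, where CD8α− replicate 2 alone is assumed to vary as little as the CD8α+ arrays did. Deposited signals gave 1 dimmer and 1 brighter pathway gene, and median centring 2 dimmer and 8 brighter ones. Brighter ones numbered 3 with no filter, and 1 each with the stricter filter, an intensity trend and a replicate block. Leaving out an array gave 1 to 18 dimmer and 0 to 8 brighter.

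Some signs turned with the offset that a scaling gives all genes. Pycard was 0.91 on the deposited scale and 0.91 with median centring (0.24 and 0.23 relative to the median gene), Gsdmd 0.81 under both (0.14 and 0.12), and Il18 0.59 under both (-0.08 and -0.10). Pycard was 0.10 with a common trimmed mean (0.28). With arrays left out, Nlrp3 ranged from -0.53 to 0.69, Pycard from -0.24 to 0.21 and Gsdmd from -0.73 to 0.67; the cause was not tested.

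Genes with a limma adjusted p under 0.05 numbered 203 with median centring, 24 with the stricter filter, 39 with an intensity trend, 11 with the replicate block and 1320 without CD8α− replicate 1, against 0 as reported. Quantile normalization of linear signals, added after the data were seen, gave the same 5 members, with differences such as -2.30 for Il1rn and 1.82 for Aim2. Of the 3 genes most like each, 2 were then shared for Aim2 and 1 for Il1rn.

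The replicate block gave 3 members dimmer and 9 pathway genes dimmer. Deviations of same-numbered arrays correlated at 0.03 across 22519 probe sets. This value cannot tell whether same-numbered arrays were prepared together, as normalization removes effects common to an array, and the labels do not say.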
